A study of Mus musculus with 36 samples.

Results

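The 9 genes described here encode the calcium-calmodulin kinases and the calcineurin subunits of the cortex. They are the 4 CaMKII genes Camk2a, Camk2b, Camk2d and Camk2g, the nuclear kinase gene Camk4, the upstream kinase gene Camkk2, the catalytic calcineurin genes Ppp3ca and Ppp3cb, and the regulatory calcineurin gene Ppp3r1. They were taken by symbol from the 55470 gene rows of each count file. All 9 were found and all 9 passed the filter on low counts. Their levels were read in 36 libraries of ribosome-bound RNA, pulled down through an HA tag on the ribosomal protein Rpl22 that Camk2a-Cre switches on in pyramidal neurons of the cortex.

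The libraries came from Shank3(ΔC/+);HA-Rpl22(f/+);Camk2a-Cre(+/-) mice and from Shank3(+/+);HA-Rpl22(f/+);Camk2a-Cre(+/-) littermates, called WT, on a C57BL6JL background. WT mice thus carry the same ribosome tag and Cre as the mutants. The extraction protocol writes the tag as f/f and the genotype field writes it as f/+. Mice were either naive or had swum, with cortex taken 1 h or 4 h later; the labels put the swim at 5 min in the treatment field but at 6 min in the protocol. The labels used here state neither age nor sex. Cohort 1 held 5 Shank3(ΔC/+) and 6 WT libraries at 1 h with 3 naive Shank3(ΔC/+) and 3 naive WT libraries. Cohort 2 held 6 Shank3(ΔC/+) and 5 WT libraries at 4 h with 4 naive libraries of each genotype. Each swim group was compared with the naive mice of its own genotype and cohort. No animal is named for any library, so each p-value reflects only how far libraries of a group spread, which may be technical.

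Calcium that enters a neuron binds calmodulin, and calcium-calmodulin switches on kinases and a phosphatase that often act on the same proteins in opposite ways. CaMKII is a many-subunit kinase of the postsynaptic density, built in the forebrain mainly from the alpha and beta subunits that Camk2a and Camk2b encode, and Camk2a is a textbook marker of excitatory forebrain neurons. Camkk2 phosphorylates and activates CaM kinase IV, the product of Camk4, which in turn acts on the transcription factor CREB. Calcineurin pairs a catalytic A subunit (Ppp3ca or Ppp3cb) with the regulatory, calcium-binding B subunit (Ppp3r1), and it removes phosphate from NFAT factors, from CREB coactivators and from synaptic proteins.

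The CaMKII genes code for closely related proteins, so it matters whether reads of one gene can be told from reads of another. The most alike in-frame stretch of 90 bases within the first 900 coding bases of Camk2b, Camk2d and Camk2g is given here, 5′ to 3′, from the longest GENCODE M21 coding model of each gene. Capitals mark the 19 positions at which the 3 genes are not all the same.
Camk2b: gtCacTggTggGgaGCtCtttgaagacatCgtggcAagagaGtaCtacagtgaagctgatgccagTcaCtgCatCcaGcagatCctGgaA
Camk2d: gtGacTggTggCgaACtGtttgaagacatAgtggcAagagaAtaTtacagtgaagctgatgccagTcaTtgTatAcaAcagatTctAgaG
Camk2g: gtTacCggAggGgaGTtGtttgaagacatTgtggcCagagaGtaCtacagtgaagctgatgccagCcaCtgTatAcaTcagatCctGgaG
These are coding bases 277 to 366, and in each gene they lie across exons 5 and 6. The stretch spans chr11:5992868-5997947 on the minus strand for Camk2b, chr3:126767515-126770809 on the plus strand for Camk2d and chr14:20766201-20770128 on the minus strand for Camk2g (mm10, intron included). Over the 900 bases, Camk2b and Camk2d were identical at 78.8%, Camk2b and Camk2g at 75.1%, and Camk2d and Camk2g at 72.2% of positions. No run of 100 bases, the read length, was shared between the coding transcripts of any 2 of the 9 genes. The longest shared run was 32 bases, between Camk2a and Camk2b.

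Promoters of Ppp3r1 and Camk2b are shown because these genes had the highest and the lowest fold change of the members in WT mice at 4 h. Their median levels per length over all 36 libraries were similar, though not their levels at 4 h. The RefSeq promoter table (GRCm38.p6, 250 bases before to 50 after the start) had entries for 5 of the 9 genes, which were Camk2b, Camk2d, Camkk2, Ppp3cb and Ppp3r1. Capitals mark TGACG, the core letters of the CREB site, read on either strand.
Ppp3r1: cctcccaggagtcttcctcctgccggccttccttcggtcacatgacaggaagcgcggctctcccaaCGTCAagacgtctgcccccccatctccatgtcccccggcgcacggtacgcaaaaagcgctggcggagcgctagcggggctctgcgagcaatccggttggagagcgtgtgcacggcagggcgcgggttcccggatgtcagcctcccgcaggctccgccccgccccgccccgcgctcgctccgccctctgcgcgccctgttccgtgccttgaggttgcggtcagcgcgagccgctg
Camk2b: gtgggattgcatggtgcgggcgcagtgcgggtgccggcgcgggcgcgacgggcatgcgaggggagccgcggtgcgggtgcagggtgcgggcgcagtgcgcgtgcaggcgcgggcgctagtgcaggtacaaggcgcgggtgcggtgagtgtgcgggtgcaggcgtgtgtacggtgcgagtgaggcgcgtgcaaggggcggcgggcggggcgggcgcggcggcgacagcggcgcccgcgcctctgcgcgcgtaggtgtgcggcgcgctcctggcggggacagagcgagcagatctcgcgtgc
The Ppp3r1 window is chr11:17159048-17159347 on the plus strand and the Camk2b window is chr11:6065699-6065998 on the minus strand. TGACG was found once in the Ppp3r1 window, as its reverse complement, and once in the Ppp3cb window, whose gene was not called at 4 h. It was not found in the windows of Camk2b, Camk2d and Camkk2, and the last 2 genes were called higher at 4 h. It was found in 20.8% of the 32851 promoters of the table. The full palindrome TGACGTCA, which contains TGACG, stood in none of the 5 windows and in 1.79% of all promoters. The Egr motif GCGTGGGCG stood in none of the 5 windows and in 0.612% of all promoters. The NFAT core GGAAA stood once in Camk2d, 4 times in Ppp3cb and in none of the other 3 windows, against 61.3% of all promoters. These are matches of letters, and binding was not measured.

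The deposited totals ran from 0.884 to 3.52 M counts per library with a median of 1.51 M. Many counts lay on rows annotated antisense to coding genes. Of 999 antisense-coding pairs with at least 1000 counts, 757 had the antisense row above the coding row, and the median antisense part was 82.0%. The kit keeps the strand of the RNA, and the sources used here leave unsaid whether the counting used it. The percent of such pair counts that lay on the coding rows, called the pair share, ran from 10.7% to 33.1%. It averaged 25.5% ± 7.23 in Shank3(ΔC/+) and 23.2% ± 5.31 in WT libraries at 4 h, against 13.1% ± 1.48 and 13.2% ± 1.4 in the naive libraries of the same genotype and cohort (SD, n = 6 and 5 against 4 and 4). At 1 h it averaged 14% ± 1.81 in Shank3(ΔC/+) and 14.4% ± 2.09 in WT libraries, against 11.3% ± 0.57 and 10.8% ± 0.182 in naive libraries (SD, n = 5 and 6 against 3 and 3). The pair share thus moves with the swim, and its part in the swim responses was addressed with a second model that holds it as a covariate.

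Markers of the labelled pyramidal neurons were all detected, and the summed CPM of 6 pyramidal genes ran from 526 to 684 at 4 h in both genotypes, against 363 to 501 in naive libraries of cohort 2. The summed CPM of 6 interneuron markers ran from 2.96 to 84.3 over all libraries. The 6 astrocyte markers summed to 28.5 to 56.7 CPM at 4 h, against 16.2 to 37.9 CPM in naive libraries of cohort 2. The 6 oligodendrocyte markers summed to 116 to 325 CPM at 4 h, against 71.6 to 123 CPM. Counts of 6 microglial markers summed to 163 to 384 CPM at 4 h, against 556 to 871 CPM, and were almost all from Csf1r, whose exons lie opposite another gene. Oligodendrocyte precursor markers (2 of 2 detected) stayed at or below 7.55 CPM in sum and endothelial markers (3 of 4 detected, Cldn5 at 0) at or below 1.73 CPM in every library. At 1 h the pyramidal sum ran from 374 to 578 CPM, against 424 to 527 CPM in naive libraries of cohort 1, and the microglial sum from 385 to 852 CPM, against 858 to 1084 CPM. The part of other cell types in the results was not tested. The Shank3 row, whose exons also lie opposite another gene, had a median of 14.2 CPM (7.18 to 34.6) in Shank3(ΔC/+) and 9.19 CPM (5.44 to 19.7) in WT libraries, and a whole-gene count does not single out the mutated part, so it checks no label. In a bulk pulldown, fewer cells of a type and less RNA per cell cannot be told apart.

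Per length of their annotated exons, the 9 genes spanned a wide range of levels. CPM values are counts per 1 M counts after TMM scaling, and per length they are divided by the kilobases of the gene's merged exons. The median over 36 libraries was 136 CPM per kb for Camk2a, 72.2 for Ppp3r1, 69.2 for Camk2b, 45.3 for Ppp3ca, 21.1 for Ppp3cb, 11.3 for Camk4, 8.26 for Camk2g, 6.54 for Camkk2 and 1.66 for Camk2d. Camk2a stood above every other member in all 36 libraries. Ppp3r1 and Camk2b kept no single order, since Ppp3r1 was the higher of them in 17 of 36 libraries, and their order went with the group. At 4 h Ppp3r1 read 119 to 145 CPM per kb in Shank3(ΔC/+) and 105 to 143 in WT mice, above Camk2b at 58.6 to 68.4 and 58.0 to 66.3. In naive libraries of cohort 1 it read 22.7 to 34.8 in Shank3(ΔC/+) and 18.5 to 22.8 in WT mice, below Camk2b at 61.3 to 81.8 and 50.9 to 77.5. Camk4 was above Camk2g in 28 and Camk2g above Camkk2 in 27 of 36 libraries, so these neighbours overlapped too. The other neighbours kept their order in all 36 libraries. Camk4 and Camk2d rested on the fewest reads, with 17 to 219 and 7 to 447 counts per library, where Camk2a had 286 to 14088. Together the 9 genes held 0.375% of all counts. These levels and their order are those of the deposited counts, whose strand setting is not given in the sources used here.

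In the mm10 annotation, 5 members have no gene on the opposite strand. These are Camk2a (ENSMUSG00000024617, chromosome 18, 60925618 to 60988152, plus strand), Camk2b (ENSMUSG00000057897, chromosome 11, 5969644 to 6066362, minus strand), Camk2g (ENSMUSG00000021820, chromosome 14, 20734875 to 20794088, minus strand), Camkk2 (ENSMUSG00000029471, chromosome 5, 122731170 to 122779409, minus strand) and Ppp3r1 (ENSMUSG00000033953, chromosome 11, 17159263 to 17200375, plus strand). Camk2d (ENSMUSG00000053819, chromosome 3, 126596302 to 126846326, plus strand) and Ppp3ca (ENSMUSG00000028161, chromosome 3, 136670124 to 136937727, plus strand) have genes opposite their introns only, with at most 2 counts in all. Ppp3cb (ENSMUSG00000021816, chromosome 14, 20499364 to 20546573, minus strand) had 12047 counts over all libraries, beside 2570 on the antisense row 1810062O18Rik. Camk4 (ENSMUSG00000038128, chromosome 18, 32934931 to 33191228, plus strand) had 2381 counts beside 384 on 2310026I22Rik. For these last genes, reads of the gene and of its antisense partner may be split by the counting. The strand setting of the counting is not given in the sources used here. The levels and swim folds of all members, also those with no gene opposite, may depend on it, which was not tested. Rows with no gene opposite, the class of the first 5 members, shifted as a whole too. They held 19.2% to 33.5% of all counts at 4 h, against 7.02% to 16.7% in naive libraries of cohort 2. Why this class shifted was not tested.

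**Figure D1:**
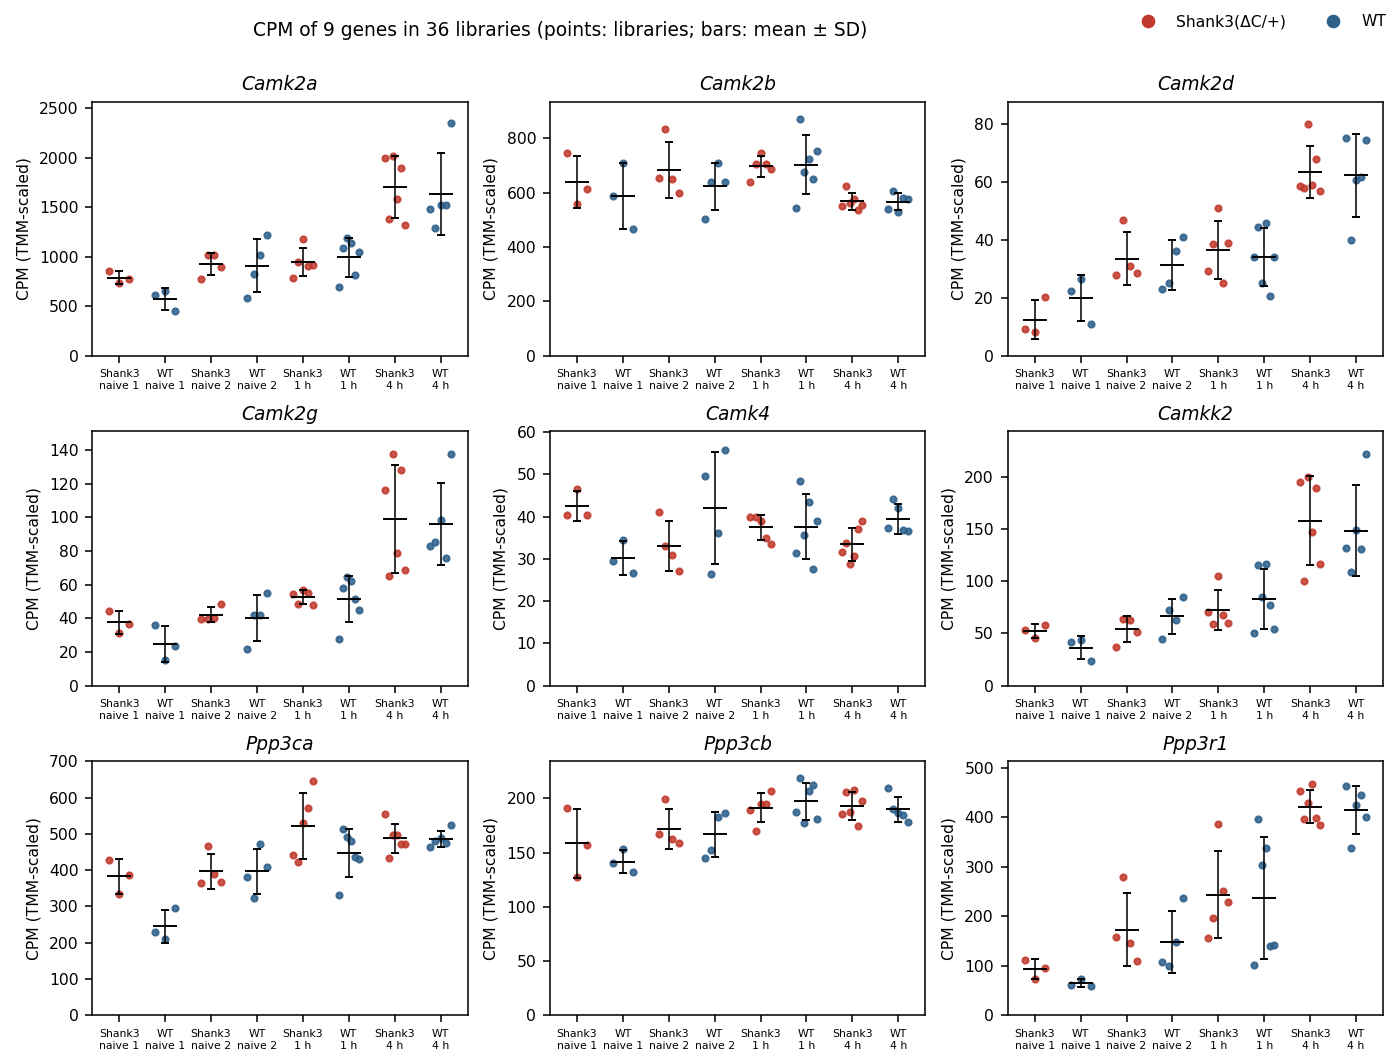
CPM after TMM scaling (y axis, linear, from 0) of the 9 genes in each library, by group (x axis: naive libraries of cohort 1 and of cohort 2, then 1 h and 4 h after swim, with Shank3(ΔC/+) in red left of WT in blue). Black marks are the mean and SD of 3 to 6 libraries: Camk2a and Ppp3r1 stand highest at 4 h, while Camk2b and Camk4 do not.

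At 1 h after the swim, kinase and phosphatase genes were called higher than in naive mice in both genotypes. In Shank3(ΔC/+) mice 2 of 9 members rose with an adjusted p under 0.05 and none fell (edgeR's quasi-likelihood test with Benjamini-Hochberg adjustment over 11341 genes), against 4.99% of all genes called higher. In WT mice 6 of 9 rose and none fell, against 16.9% of all genes. The median log2 fold change of the 9 members was 0.44 in Shank3(ΔC/+) mice, against 0.09 over all genes and 0.30 over genes with no gene opposite. In WT mice it was 0.80, against 0.24 and 0.57.

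Ppp3r1, the calcineurin B subunit, had the highest fold of the members in WT at 1 h. It read 156, 196, 387, 251 and 229.7 CPM in Shank3(ΔC/+) mice at 1 h, against 112, 73.2 and 96.1 CPM in their naive controls. At 1 h in WT mice it ran from 102 to 397 CPM with a median of 223, against 60.5, 73.6 and 59.6 CPM in naive mice. In both genotypes every swim library lay above every naive library, and the swim libraries were spread widely. Its fitted log2 fold change was 1.38 (SE 0.35, adjusted p = 0.0169) in Shank3(ΔC/+) and 1.88 (SE 0.36, adjusted p = 0.000675) in WT mice. The WT value stood at the 95.1 percentile of all genes tested and at the 93.3 percentile of genes with no gene opposite.

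The catalytic subunit gene Ppp3ca rose in WT and its call was missed in Shank3(ΔC/+) mice. It read 441, 422, 529, 570.1 and 645 CPM in Shank3(ΔC/+) mice at 1 h, against 429, 334 and 387 CPM in naive ones. In WT mice it ran from 332 to 514 CPM at 1 h with a median of 458, against 229.9, 211 and 297 CPM in naive mice. The WT groups did not overlap, and the Shank3(ΔC/+) groups overlapped by 1 swim library. The log2 fold change was 0.44 (SE 0.19, adjusted p = 0.108) in Shank3(ΔC/+) and 0.87 (SE 0.19, adjusted p = 0.00195) in WT mice. DESeq2 (0.45, adjusted p = 0.0239), limma (0.40, adjusted p = 0.0433) and the additive cohort term (0.62, adjusted p = 0.0126) did call it in Shank3(ΔC/+) mice. Naive WT libraries of cohort 1 were also the lowest group for this gene, with a mean of 246 ± 45.2 CPM against 397 ± 61.9 CPM in naive WT libraries of cohort 2 (SD, n = 3 and 4). That naive group had the lowest mean for every other member called in WT mice at 1 h. Its means were 573 CPM for Camk2a, 24.9 for Camk2g, 36.3 for Camkk2, 142 for Ppp3cb and 64.6 for Ppp3r1. Naive Shank3(ΔC/+) libraries of cohort 1 averaged 788, 37.5, 52.4, 159 and 93.9 CPM in that order. All 1 h calls in WT mice are read against this low group. Ppp3cb, the other catalytic subunit, rose in WT by 0.48 (SE 0.17, adjusted p = 0.0276), and its value in Shank3(ΔC/+) mice was 0.27 (SE 0.17, adjusted p = 0.275).

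Among the kinases, Camk2a read 782, 943, 1175, 905 and 921 CPM in Shank3(ΔC/+) mice at 1 h, against 857, 730.0 and 777 CPM in naive ones. WT mice had Camk2a between 694 and 1190.1 CPM at 1 h with a median of 1069, against 612, 658 and 449 CPM in naive mice. The WT groups did not overlap and the Shank3(ΔC/+) groups did. The log2 fold change of Camk2a was 0.26 (SE 0.24, adjusted p = 0.461) in Shank3(ΔC/+) and 0.80 (SE 0.24, adjusted p = 0.0107) in WT mice. Camk2g rose in WT by 1.11 (SE 0.31, adjusted p = 0.00805), and Camkk2, the activating kinase, by 1.2 (SE 0.31, adjusted p = 0.00466). In Shank3(ΔC/+) mice these values were 0.48 (SE 0.29) for Camk2g and 0.47 (SE 0.30) for Camkk2, with adjusted p of 0.249 and 0.266.

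Camk2d, the least abundant of the 4 CaMKII genes here, was the one member called in Shank3(ΔC/+) and not in WT mice. It read 29.3, 38.5, 51.0, 25.3 and 39.0 CPM in Shank3(ΔC/+) mice at 1 h, against 9.10, 8.14 and 20.2 CPM in naive ones, which are 9, 7 and 16 counts. WT mice at 1 h ran from 20.6 to 45.9 CPM with a median of 34.0, against 22.5, 26.5 and 11 CPM. The Shank3(ΔC/+) groups did not overlap and the WT groups did. The log2 fold change was 1.59 (SE 0.34, adjusted p = 0.00613) in Shank3(ΔC/+) and 0.77 (SE 0.32, adjusted p = 0.0542) in WT mice. Camk2b stood at 0.12 (SE 0.19) in Shank3(ΔC/+) and 0.26 (SE 0.18) in WT mice, and Camk4 at -0.18 (SE 0.20) and 0.33 (SE 0.22), none past the threshold.

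With 3 naive libraries per genotype, single libraries decided several 1 h calls. Without naive Shank3(ΔC/+) replicate 2, neither Camk2d (1.38, adjusted p = 0.0866) nor Ppp3r1 (1.24, adjusted p = 0.131) passed, and Ppp3r1 also missed without naive replicate 3 (adjusted p = 0.0608) or without replicate 3 at 1 h (adjusted p = 0.0593). In WT mice Camk2a missed without naive replicate 3 (0.65, adjusted p = 0.0845), Camk2g without naive replicate 2 (0.81, adjusted p = 0.0881), and Ppp3cb without naive replicate 1 or 3 or without replicate 2 at 1 h (adjusted p of 0.0809, 0.114 and 0.0658). Camk2d in WT mice passed in 7 of the leave-one-out fits, with adjusted p of 0.0311 to 0.0499.

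At 4 h the same 5 members rose in both genotypes: the kinase genes Camk2a, Camk2d, Camk2g and Camkk2, and the calcineurin B gene Ppp3r1. Neither catalytic calcineurin gene, nor Camk2b or Camk4, passed the threshold of edgeR's test in either genotype. The catalytic genes depended on the tool: DESeq2 called both higher in both genotypes (Ppp3ca 0.40 in Shank3(ΔC/+) and 0.37 in WT mice, Ppp3cb 0.25 in each), limma called Ppp3ca in Shank3(ΔC/+) mice (0.36), and an additive cohort term called Ppp3ca in WT mice (0.42). All genes were called higher at 32.7% in Shank3(ΔC/+) and 29.0% in WT mice, so 5 of 9 stands on a high background. The median log2 fold change of the 9 members was 0.87 in Shank3(ΔC/+) mice, against 0.22 over all genes and 0.62 over genes with no gene opposite. In WT mice it was 0.84, against 0.23 and 0.58.

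Camk2a ran from 1320.0 to 2020.5 CPM in Shank3(ΔC/+) mice at 4 h with a median of 1743, against 779, 1018, 1013 and 898 CPM in naive ones. It read 1479.8, 1286, 1526, 1522 and 2351 CPM in WT mice at 4 h, against 580.3, 829, 1014 and 1218 CPM in naive mice. All 11 swim libraries lay above all 8 naive libraries of the cohort. Camk2a had a log2 fold change of 0.88 (SE 0.21, adjusted p = 0.000646) in Shank3(ΔC/+) and 0.84 (SE 0.22, adjusted p = 0.00159) in WT mice, at the 61.2 and 62.8 percentiles of genes with no gene opposite.

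Ppp3r1 ran from 384 to 468 CPM in Shank3(ΔC/+) mice at 4 h with a median of 413, against 159, 278, 146 and 109 CPM in naive ones. It read 462, 338, 424, 444 and 400.2 CPM in WT mice at 4 h, against 108, 100.0, 148 and 236 CPM in naive mice. The groups did not overlap in either genotype, and the swim libraries lay close together. The log2 fold change was 1.27 (SE 0.30, adjusted p = 0.000451) in Shank3(ΔC/+) and 1.48 (SE 0.31, adjusted p = 0.000174) in WT mice. The catalytic partners differed from it in size: Ppp3ca stood at 0.30 (SE 0.17) and 0.29 (SE 0.17), and Ppp3cb at 0.16 (SE 0.15) and 0.18 (SE 0.15), in Shank3(ΔC/+) and WT mice in that order.

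Camkk2 ran from 101 to 199.9 CPM in Shank3(ΔC/+) mice at 4 h with a median of 168, against 37.1, 63.8, 62.9 and 51.5 CPM in naive ones. It read 131, 109, 149, 131 and 222 CPM in WT mice at 4 h, against 45.0, 72.4, 63.3 and 84.7 CPM. The groups did not overlap in either genotype. Its log2 fold change of 1.54 (SE 0.26, adjusted p = 8.06e-06) was the highest of the 9 in Shank3(ΔC/+) mice, and it was 1.16 (SE 0.26, adjusted p = 0.000343) in WT mice. Camk2g rose by 1.25 in both, and Camk2d by 0.87 (SE 0.24) in Shank3(ΔC/+) and 0.98 (SE 0.25) in WT mice.

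Camk2b, the partner of Camk2a in the forebrain holoenzyme, ran from 535 to 624 CPM in Shank3(ΔC/+) mice at 4 h with a median of 558, against 652, 833, 651 and 598 CPM in naive ones. It read 539, 605, 529.7, 579 and 576 CPM in WT mice at 4 h, against 503, 639.7, 710.1 and 639 CPM. The groups overlapped in both genotypes. The log2 fold change was -0.27 (SE 0.16, adjusted p = 0.145) in Shank3(ΔC/+) and -0.14 (SE 0.17, adjusted p = 0.489) in WT mice. Its direction at 4 h depended on the scaling. With total-count scaling, all 9 members were called higher in each genotype. This scaling moves the median of all genes to 1.17 in Shank3(ΔC/+) and 0.98 in WT mice and gives 7193 genes higher and 1169 lower in Shank3(ΔC/+) mice, where TMM gave 3711 and 3329, and 6478 higher and 1384 lower in WT mice, where TMM gave 3294 and 3056. Camk2b stood at 0.66 in Shank3(ΔC/+) and 0.61 in WT mice under it. Fitted among the 4266 tested genes with no gene opposite, it was called lower (-0.71 and -0.53), beside 25.6% of those genes called lower in Shank3(ΔC/+) and 22.6% in WT mice. Camk4 stood at 0.01 (SE 0.18) in Shank3(ΔC/+) and -0.10 (SE 0.18) in WT mice, and total-count scaling turned the WT value to 0.65, past the threshold.

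Among genes with no gene opposite, where 5 members can be fitted, the calls of the other 4 were kept at 4 h with smaller values. Camk2a stood at 0.42 in Shank3(ΔC/+) and 0.45 in WT mice, Camk2g at 0.79 and 0.86, Camkk2 at 1.09 and 0.76, and Ppp3r1 at 0.84 and 1.1, beside 25.6% and 19.8% of genes called higher. At 1 h this fit called Ppp3r1 alone in Shank3(ΔC/+) mice (1.15), beside 1.69% of genes called higher. In WT mice at 1 h it called Camk2a (0.43), Camk2g (0.73), Camkk2 (0.82) and Ppp3r1 (1.47), beside 8.56%.

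Adding the pair share to the model left the 1 h calls of the members in place and removed those at 4 h. With the pair share as a covariate, 2 of 9 members were called higher in Shank3(ΔC/+) mice at 1 h, beside 5.41% of all genes, and 6 of 9 in WT mice, beside 12.5%. These were the same members as without it. In Shank3(ΔC/+) mice Camk2d stood at 1.41 (SE 0.30, adjusted p = 0.000975) and Ppp3r1 at 1.07 (SE 0.35, adjusted p = 0.0435). In WT mice Ppp3ca kept most of its value, at 0.73 (SE 0.13, adjusted p = 8.34e-05), as did Ppp3cb at 0.47 (SE 0.14) and Ppp3r1 at 1.46 (SE 0.39), while Camk2a stood at 0.42 (SE 0.12), Camk2g at 0.69 (SE 0.24) and Camkk2 at 0.67 (SE 0.20).

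At 4 h no member was called with the covariate by edgeR, beside 0.362% of all genes called higher in Shank3(ΔC/+) and 4.09% in WT mice. An unadjusted p under 0.05 was reached by 1 member in Shank3(ΔC/+) (Camk2b, -0.42) and by 2 in WT mice (Camk2g and Ppp3r1). Camk2a stood at 0.02 (SE 0.14) in Shank3(ΔC/+) and 0.12 (SE 0.13) in WT mice, Camkk2 at 0.37 (SE 0.19) and 0.17 (SE 0.18), and Ppp3r1 at 0.44 (SE 0.36) and 0.77 (SE 0.35). No 4 h library had a pair share below 17.0%, and no naive library of the cohort was above 15.0%. At 4 h the swim and the pair share therefore cannot be told apart, and the 4 h calls rest on the model without it. The pair shares did not overlap at 1 h either. In each genotype every 1 h library lay above every naive library of its cohort, though by less than at 4 h. The 1 h calls kept with the covariate are thus not shown to be independent of the pair share.

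**Figure D2:**
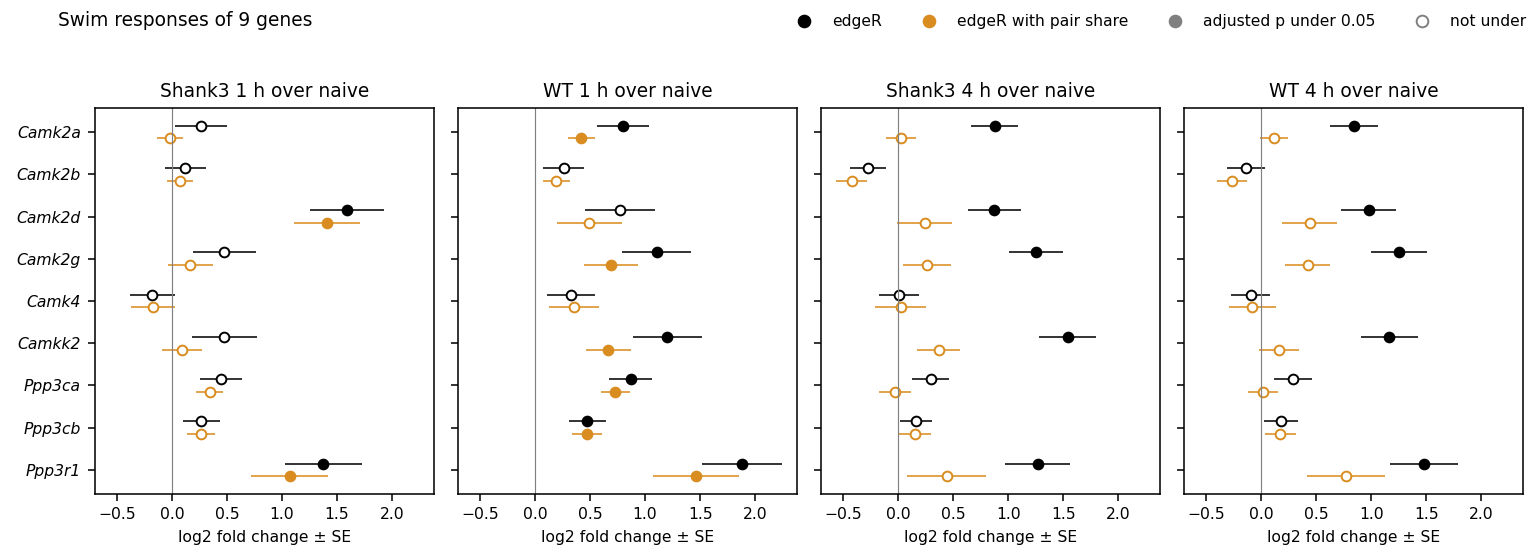
Log2 fold change of swim over naive (x axis, with SE) for the 9 genes (y axis) at 1 h and 4 h in Shank3(ΔC/+) and WT mice, from the model without (black) and with (orange) the pair share; filled points have an adjusted p under 0.05. The 5 filled black points at 4 h have open orange partners nearer 0, while Ppp3r1 stays filled in both models at 1 h.

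**Figure D3:**
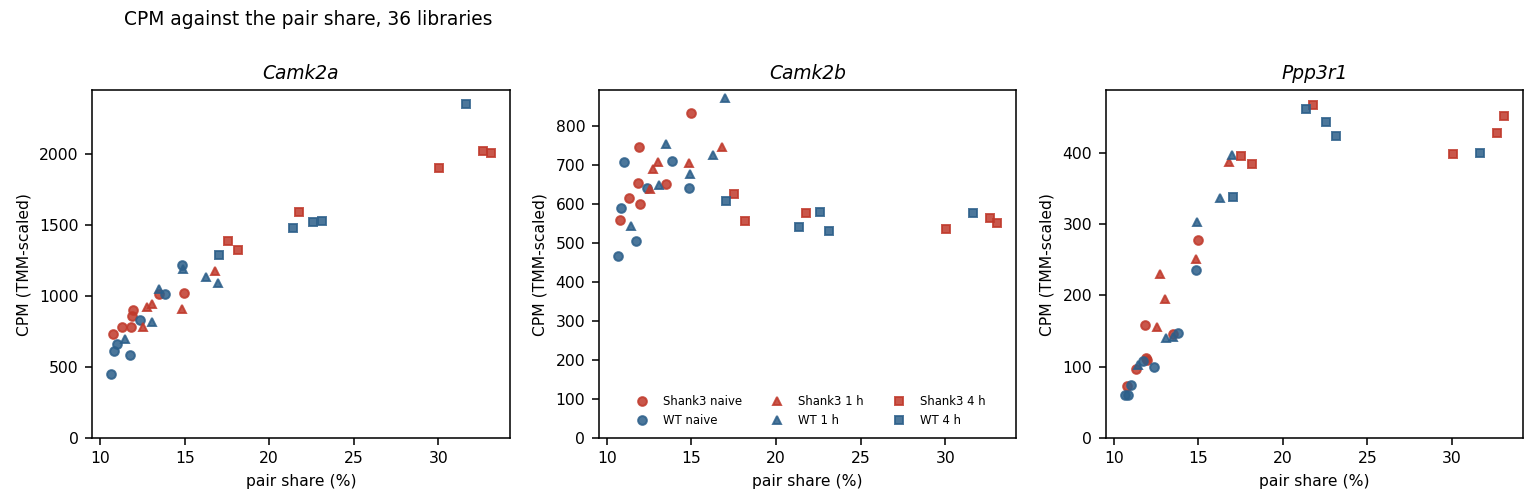
CPM after TMM scaling (y axis, linear) of Camk2a, Camk2b and Ppp3r1 against the pair share in percent (x axis) in 36 libraries, coloured by genotype and shaped by time. Camk2a climbs along the whole range, and Camk2b shows no such climb. Ppp3r1 climbs through the naive and 1 h libraries and lies between 338 and 468 CPM at 4 h, where no pair share is below 17.0%. At pair shares of 16% to 18% Ppp3r1 read 337 to 397 CPM at 1 h and 338 and 397 CPM at 4 h. In the same libraries Camk2a read 1089 to 1175 CPM at 1 h and 1286 and 1385 CPM at 4 h, and Camk2b 725 to 870 CPM at 1 h and 605 and 624 CPM at 4 h. The 1 h libraries are of cohort 1 and the 4 h libraries of cohort 2.

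Shares within a family compare genes inside 1 library and need no scaling between libraries. Camk2a made up 73.6% ± 3.01 of the summed CPM per kb of the 4 CaMKII genes in Shank3(ΔC/+) mice at 4 h, against 59.9% ± 3.03 in naive ones (SD, n = 6 and 4). In WT mice at 4 h it made up 72.7% ± 3.65, against 60.9% ± 4.47 (SD, n = 5 and 4). The groups did not overlap in either genotype, with exact two-sided permutation p of 0.00952 in Shank3(ΔC/+) and 0.0159 in WT mice, the smallest these group sizes allow. Camk2b made up the counterpart, with 20.6% ± 3.80 in Shank3(ΔC/+) and 21.3% ± 3.77 in WT mice at 4 h, against 36.1% ± 3.12 and 35.3% ± 4.82 in naive mice. At 1 h the Camk2a share was 59.3% ± 2.25 in Shank3(ΔC/+) mice, against 58.1% ± 1.64 in naive ones (exact permutation p = 0.464). In WT mice at 1 h it was 60.4% ± 2.96, against 52.6% ± 0.817 (exact permutation p = 0.0238).

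Among the 3 calcineurin genes, the B subunit gene Ppp3r1 made up 64.8% ± 1.06 in Shank3(ΔC/+) mice at 4 h, against 46.1% ± 7.20 in naive ones (exact permutation p = 0.00952). In WT mice at 4 h it made up 64.4% ± 2.94, against 42.7% ± 7.66 (exact permutation p = 0.0159). At 1 h it made up 49.5% ± 7.38 in Shank3(ΔC/+) mice, against 33.9% ± 1.52 (exact permutation p = 0.0357), and 49.2% ± 11.5 in WT mice, against 33.0% ± 4.01 (exact permutation p = 0.0476). Of the 16 share tests made, none had an adjusted p under 0.05, and the lowest was 0.0635. These 2 shares were chosen after counts had been seen. Within the 11 libraries at 4 h, the Camk2a share stood at 67.9% in the library of lowest pair share and at 76.8% in that of the highest, while the Ppp3r1 share lay between 60.1% and 67.1% with the lowest and the highest of its values at pair shares of 17.0% and 21.4%. Outside 4 h, the Ppp3r1 share tended to be higher where the pair share was. Naive libraries of cohort 1 had 29.3% to 37.2%, at pair shares of 10.7% to 11.9%. The naive libraries of highest pair share, 14.9% in WT and 15.0% in Shank3(ΔC/+) mice, had 54.1% and 55.4%. The 1 h libraries of highest pair share, 17.0% and 16.8%, had 61.7% in WT and 61.5% in Shank3(ΔC/+) mice. The Camk2a shares of these 1 h libraries were 57.9% in WT and 62.9% in Shank3(ΔC/+) mice. In the 4 h libraries of lowest pair share, which are of the other cohort, they were 67.9% in WT (pair share 17.0%) and 69.6% in Shank3(ΔC/+) mice (17.5%). The part of the pair share in these differences was not tested.

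**Figure D4:**
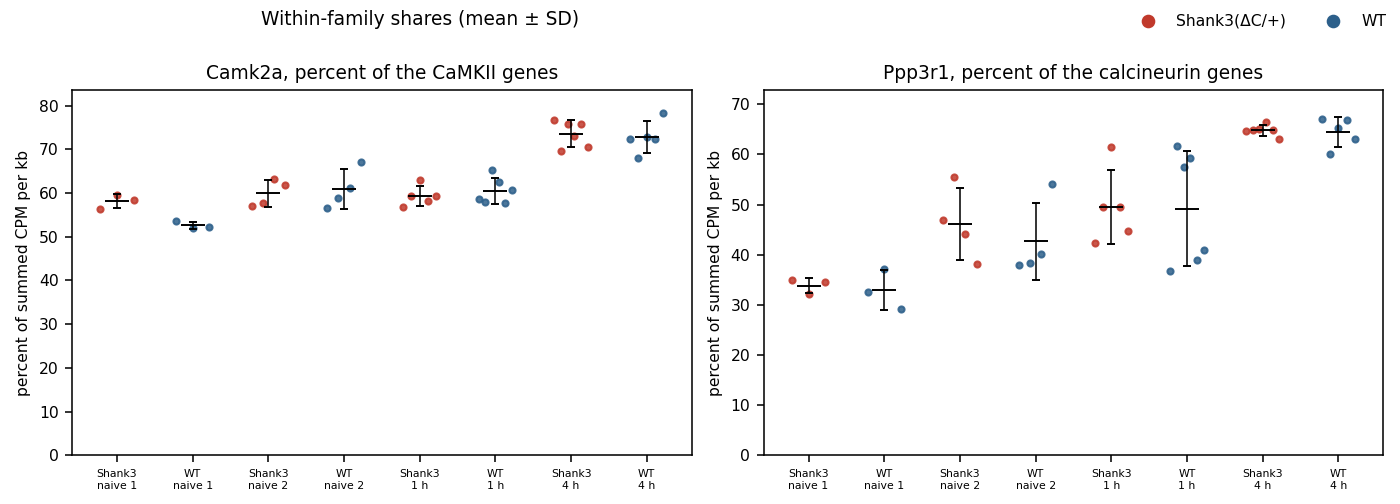
Camk2a as percent of the summed CPM per kb of the 4 CaMKII genes (left) and Ppp3r1 as percent of that of the 3 calcineurin genes (right), y axes from 0, in each library by group, with mean and SD in black and Shank3(ΔC/+) in red left of WT in blue. At 4 h the Camk2a shares average 73.6% in Shank3(ΔC/+) and 72.7% in WT mice, and every 4 h library stands above every naive library.

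Genotype was compared among naive mice, at 1 h, at 4 h and over all conditions. No member was called between Shank3(ΔC/+) and WT mice in any of them by edgeR, DESeq2 or limma, although limma called 2787 genes at 4 h where edgeR called 1. Over all genes edgeR called 0.00882% among naive mice, 0% at 1 h, 0.00882% at 4 h and 0.0265% over all conditions. At an unadjusted p under 0.05, edgeR gave 1 member among naive mice (Ppp3ca), none at 1 h, none at 4 h and 1 over all conditions (Ppp3ca). The counts at that level were 1, 0, 0 and 1 by DESeq2 and 1, 0, 2 and 2 by limma. For Ppp3ca the log2 fold change of Shank3(ΔC/+) over WT was 0.32 (SE 0.14, adjusted p = 1.00) among naive mice. It read 429, 334 and 387 CPM in naive Shank3(ΔC/+) mice of cohort 1, against 229.9, 211 and 297 CPM in WT mice, with no overlap. In cohort 2 it read 366, 467, 388 and 366 CPM in naive Shank3(ΔC/+) mice, against 382, 324, 473 and 409.6 CPM in WT mice, with overlap.

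Camk2a stood at 0.24 (SE 0.18) for Shank3(ΔC/+) over WT among naive mice, at -0.08 (SE 0.19) at 1 h and at 0.06 (SE 0.19) at 4 h. Its share of the CaMKII genes in naive mice of cohort 1 was 58.1% ± 1.64 in Shank3(ΔC/+) and 52.6% ± 0.817 in WT mice, with no overlap and an exact permutation p of 0.1, the smallest that 3 against 3 allows. In cohort 2 it was 59.9% ± 3.03 in Shank3(ΔC/+) and 60.9% ± 4.47 in WT mice (exact permutation p = 0.771). The difference of the swim responses between genotypes was tested as an interaction, and 0 of 9 members passed at 1 h and at 4 h by edgeR, with 0% of all genes called at either time. None had an unadjusted p under 0.05 by the edgeR test without covariate or by DESeq2, and limma gave 4 members at 1 h and 1 at 4 h at that level. With the pair share as a covariate edgeR gave 4 at 1 h, which were Camk2a (-0.44), Camk2d (0.91), Camkk2 (-0.57) and Ppp3ca (-0.39), none with an adjusted p under 0.05, and without the filter it gave 1, Camkk2. At 1 h the interaction was 0.82 (SE 0.47) for Camk2d, -0.73 (SE 0.42) for Camkk2, -0.53 (SE 0.33) for Camk2a and -0.50 (SE 0.48) for Ppp3r1. With the additive cohort term these were smaller, at 0.23 (SE 0.33) for Camk2d, -0.24 (SE 0.33) for Camkk2, -0.29 (SE 0.26) for Camk2a and -0.32 (SE 0.36) for Ppp3r1, and the median of the 9 members was -0.14, where it was -0.50 without that term. The calls of Camk2d in Shank3(ΔC/+) and of Camk2a, Camk2g, Camkk2, Ppp3ca and Ppp3cb in WT mice at 1 h are therefore not shown to differ between genotypes.

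The wider pathway was read from 36 further genes in 5 lists, of which 30 passed the filter. At 1 h, 1 of 30 was called higher and none lower in Shank3(ΔC/+) mice, beside 4.99% of all genes higher and 7.25% lower, and 10 were called higher and 1 lower in WT mice, beside 16.9% and 17.3%. At 4 h, 20 were called higher and 4 lower in Shank3(ΔC/+) mice, beside 32.7% of all genes higher and 29.4% lower, and 20 higher and 3 lower in WT mice, beside 29.0% and 26.9%. These shares of all genes are the background for each list that follows. No list gene was called for genotype or the interactions. The median log2 fold change of the 30 was 0.37 in Shank3(ΔC/+) and 0.70 in WT mice at 1 h, and 0.86 in Shank3(ΔC/+) and 0.78 in WT mice at 4 h, beside the medians of all genes given above. With total-count scaling none of the 30 was called lower in any swim comparison, so each fall named here is relative to the shift of all genes: Gap43 stood at 0.20 in Shank3(ΔC/+) and -0.34 in WT mice at 4 h, Calm2 at 0.28 and 0.08, and Camk1 at -0.13 in WT mice at 1 h, none of them called.

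Among the relatives of the CaM kinases, Dclk1 was called in both genotypes and at both times. Of 10 relatives, 1 was called higher in Shank3(ΔC/+) mice at 1 h, and 5 were called higher and 1 lower in WT mice. At 4 h, 7 were called higher in Shank3(ΔC/+) and 8 in WT mice, and none lower, beside 32.7% and 29.0% of all genes higher. The doublecortin-like kinase Dclk1 rose in all 4 comparisons, by 1.05 (SE 0.30) in Shank3(ΔC/+) and 1.44 (SE 0.30) in WT mice at 1 h, and by 1.59 (SE 0.27) and 1.6 (SE 0.27) at 4 h. Camkk1, the other CaM kinase kinase, rose at 4 h by 1.85 (SE 0.29) in Shank3(ΔC/+) and 1.46 (SE 0.29) in WT mice, with 114 ± 29.0 and 105 ± 30.3 CPM at 4 h against 30.8 ± 17.4 and 38.3 ± 16.5 CPM in naive mice (SD). Dapk1, a death-associated kinase, rose by 1.27 (SE 0.25) in Shank3(ΔC/+) mice at 4 h. Camk1, a Camkk target in the cytoplasm, fell by 0.73 (SE 0.22) in WT mice at 1 h, with 22.0 ± 3.2 CPM against 36.6 ± 12.6 CPM in naive mice (SD, n = 6 and 3). Exons of Dclk1 and Camk1 lie opposite another gene.

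Of 7 measured genes for calmodulin and calmodulin-binding proteins, none was called in Shank3(ΔC/+) and 3 were called higher in WT mice at 1 h, and 5 higher and 2 lower in each genotype at 4 h. With 29.4% of all genes in Shank3(ΔC/+) and 26.9% in WT mice called lower at 4 h, 2 of 7 lower is near the background. Gap43, a growth cone protein that binds calmodulin, fell by 0.72 (SE 0.18) in Shank3(ΔC/+) and by 1.13 (SE 0.18) in WT mice at 4 h, with 224 ± 26.8 and 199.7 ± 8.24 CPM against 368 ± 65.0 and 437 ± 79.5 CPM in naive mice (SD). Camta2, a calmodulin-binding transcription activator, rose at 4 h by 2.12 (SE 0.33) in Shank3(ΔC/+) and 1.83 (SE 0.33) in WT mice, and Camta1 rose by 0.86 (SE 0.24) in WT mice at 1 h. At 4 h Calm2 and Calm3, genes for calmodulin itself, were called in opposite directions, which was singled out after the values were seen. Calm3 rose by 0.93 in Shank3(ΔC/+) and 0.74 in WT mice, while Calm2 fell by 0.63 in Shank3(ΔC/+) and by 0.68 in WT mice. Exons of Camta1 lie opposite another gene.

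Of 7 measured calcineurin subunits and regulators, none was called in Shank3(ΔC/+) and 1 was called higher in WT mice at 1 h, and 2 higher and 2 lower in Shank3(ΔC/+) and 3 higher and 1 lower in WT mice at 4 h, near the shares of all genes. Rcan1, a calcineurin inhibitor that calcineurin signalling itself induces, rose at 4 h by 0.64 (SE 0.24) in Shank3(ΔC/+) and by 1.35 (SE 0.26) in WT mice, and its exons lie opposite another gene. Of the 2 CaMKII inhibitor genes, neither was called at 1 h, and both were called higher in Shank3(ΔC/+) and 1 in WT mice at 4 h. Of 4 measured transcription factors and coactivators, none was called in Shank3(ΔC/+) and 1 was called higher in WT mice at 1 h, and 4 were called higher in Shank3(ΔC/+) and 3 in WT mice at 4 h. The CREB coactivator Crtc1, which calcineurin dephosphorylates, rose by 2.37 (SE 0.46) in Shank3(ΔC/+) mice at 4 h, with 41.9 ± 21.1 CPM against 7.92 ± 2.69 CPM in naive mice (SD, n = 6 and 4). The CREB-binding protein gene Crebbp rose by 2.26 (SE 0.65) in WT mice at 1 h from very few reads, with 6.85 ± 1.4 CPM against 1.29 ± 1.18 CPM in naive mice (SD, n = 6 and 3).

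With the pair share as a covariate, 1 of the 30 list genes was called higher and 1 lower in Shank3(ΔC/+) mice at 1 h, beside 5.41% of all genes higher and 6.59% lower in that fit, and 5 higher and 2 lower in WT mice, beside 12.5% and 9.24%. The lower call shared by both genotypes was Nrgn, the calmodulin-binding protein neurogranin, at -0.69 in Shank3(ΔC/+) and -0.52 in WT mice. At 4 h none was called in Shank3(ΔC/+) mice, beside 0.362% of all genes higher and 0.168% lower, and 2 were called higher and 1 lower in WT mice, beside 4.09% and 3.6%. Those were Dclk1 at 0.74 (SE 0.23, adjusted p = 0.0397), Rcan1 at 0.95 (SE 0.27, adjusted p = 0.0188) and Gap43 at -0.80 (SE 0.16, adjusted p = 0.00151).

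Over the 36 libraries, the CPM of Camk2a ran most closely with Cox6b1, Vamp2, Vsnl1, Prkacb and Cox4i1, with Spearman rho of 0.98 to 0.97. Cox6b1 and Cox4i1 encode subunits of cytochrome c oxidase, Vamp2 a synaptic vesicle protein, Vsnl1 a neuronal calcium sensor and Prkacb a catalytic subunit of protein kinase A. Among the members, rho with Camk2a was 0.93 for Ppp3r1 and Camk2g, 0.92 for Camkk2, 0.89 for Camk2d, 0.72 for Ppp3ca and 0.46 for Ppp3cb. It was 0.06 for Camk4 and -0.13 for Camk2b. For Ppp3ca the closest genes were Atxn10, Nckap1, Nub1, Exoc3 and Sf3b1, with rho of 0.89 to 0.85. These values describe 36 libraries that share groups, scaling and the pair share, so they are not independent points.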

How the data were processed

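Ribosome-bound RNA libraries were made with a strand-preserving TruSeq kit and read as pairs of 100 bases, per the labels' protocols. The deposited values are raw counts, 1 whole number for every gene and library. The submitters' processing notes list the mm10 build and, as tools, HISAT2 2.2.0, Salmon 1.4, StringTie 2.1.3, Trimmomatic 0.39, DESeq2 and FastQC. Which of them made the counts, and with which strand setting, is not given in the sources used here. Totals were 0.884 to 3.52 M counts per library, which sets the precision of each gene.

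The main test was edgeR 4.0.16 under R 4.3.3 (TMM scaling, its low-count filter, robust quasi-likelihood test) over 8 cells of genotype, treatment and cohort, with 28 residual degrees of freedom and 11341 genes tested. The 10 comparisons were adjusted by Benjamini-Hochberg over all genes tested, with a threshold of 0.05. Each SE was taken as |log2 fold change| / √F. Alternatives were DESeq2 1.42.0, limma 3.58.1 (voom with quality weights), total-count scaling, no filter, an additive cohort term, the pair share as a covariate, genes with no gene opposite only, a replicate block, and leaving out each library. Positions came from GENCODE M21, and promoters from RefSeq. The test was run on simulated data with known changes. The members, lists and measures were chosen with earlier results of these data known. All 9 members are named in every comparison. List genes are given by counts, with at most the 5 of smallest p named per comparison, and the 5 genes with the highest Spearman rho to Camk2a and to Ppp3ca are named, provisional names left out. The values of 1 list gene are not reported here. Libraries of 1 group differed in 68 of 68 pairs by more than sampling noise (chi-square per degree of freedom 1.46 to 81.6), so none was treated as a repeat deposit.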

Additional observations from a re-analysis of the deposited data

Results flagged for a closer look

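Of 66 groups of values tested, 3 held 1 library whose gap to the others was large for the range of its group (Dixon's 95% limit), and chance gives about 1 in 20. Camk2a read 2351 CPM in WT replicate 5 at 4 h, where the other 4 libraries read 1286 to 1526 CPM. Camk2g read 48.7 CPM in naive Shank3(ΔC/+) replicate 7, where the other 3 naive libraries of cohort 2 read 39.5 to 40.4 CPM. Ppp3r1 made up 54.1% of the calcineurin genes in naive WT replicate 7, where the other 3 naive WT libraries of cohort 2 had 38.0% to 40.2%. These libraries also stood out as a whole. WT replicate 5 at 4 h had the highest total, 3.52 M, and a pair share of 31.6%, against 17.0% to 23.1% in the other 4. Naive Shank3(ΔC/+) replicate 7 had the lowest TMM factor, 0.498. Naive WT replicate 7 had a pair share of 14.9%, against 11.7% to 13.8% in the other 3.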

How the results depend on the processing

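Over 3920 member values recomputed under the alternatives, 3866 kept their direction and side of the threshold or changed sign with no call in either fit (161 of them), 21 lost a call, 30 gained one and 3 turned. DESeq2 called 3 members in Shank3(ΔC/+) and 6 in WT mice at 1 h and 7 in each at 4 h, and limma 3 and 6 at 1 h and 6 and 5 at 4 h; the calls gained were of Ppp3ca and Ppp3cb. The additive cohort term gained Ppp3ca in Shank3(ΔC/+) mice at 1 h and in WT mice at 4 h, and Camk2d in WT mice at 1 h (1.05), where the fit with no filter gained Camk2d (0.87) and lost Ppp3cb. The 3 that turned came with total-count scaling at 4 h: Camk2b to 0.66 in Shank3(ΔC/+) and 0.61 in WT mice, and Camk4 to 0.65 in WT mice. By construction this scaling shifts all genes. It called 9 of 9 members at 4 h in each genotype and 4 of 9 in Shank3(ΔC/+) mice at 1 h. With the pair share as a covariate 0 members were called at 4 h in either genotype, and in the fit on genes with no gene opposite, which tests 5 members, 1 was called in Shank3(ΔC/+) mice at 1 h. Leaving out each library gave 0 to 2 members called in Shank3(ΔC/+) mice at 1 h and 4 to 7 in WT mice at 1 h, and 5 at 4 h in both genotypes each time. Same-numbered libraries correlated over 0.1 in 8 of 28 pairs (-0.25 to 0.73). Differently numbered libraries were not correlated, so this cannot decide whether the numbers pair the mice. The main test does not take the numbers as pairs. With a replicate block, 2 members were called in Shank3(ΔC/+) and 5 in WT mice at 1 h, where Ppp3cb (0.47, adjusted p = 0.0643) lost its call, and 5 in each genotype at 4 h. Over all genes, the pair share covariate called 60 genes in Shank3(ΔC/+) and 872 in WT mice at 4 h, where the main test called 7040 and 6350, and 2461 in WT mice at 1 h, where it called 3879. In Shank3(ΔC/+) mice at 1 h, where it called 1388, limma called 2877, the additive cohort term 2905 and the replicate block 493. The fit on genes with no gene opposite called 179 in Shank3(ΔC/+) and 797 in WT mice at 1 h, and 2184 in Shank3(ΔC/+) and 1805 in WT mice at 4 h, among fewer genes. For genotype, limma called 2787 genes at 4 h where the main test called 1, and other fits of genotype or interaction called 0 to 8; the cause was not tested. At 1 h, total-count scaling called 1667 genes higher and 103 lower in Shank3(ΔC/+) mice, where TMM gave 566 and 822, and 4165 higher and 505 lower in WT mice, where TMM gave 1917 and 1962. Depth limits Camk4 and Camk2d most, with 2381 and 3253 counts over all libraries.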
